A study of Mus musculus with 9 samples.

Results

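Megakaryocytes are the large bone marrow cells that shed platelets, and platelets seal damaged vessels. A platelet is held at the vessel wall by the GPIb-IX-V receptor, which catches von Willebrand factor, binds collagen through GPVI, and aggregates through an integrin that binds fibrinogen. Its alpha granules release chemokines and adhesive proteins. In blood formation, megakaryocytes share an early path with red cells and with basophils and mast cells, and the integrin gene *Itga2b*, whose product is CD41, is already on in early progenitors. PU.1, the product of *Spi1*, is an ETS factor needed for monocytes, macrophages and B cells.

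The genes described here are 9 genes of megakaryocytes and platelets, found by their symbols in a table of 54347 genes. They are the GPIb-IX receptor genes *Gp1ba*, *Gp1bb* and *Gp9*, the collagen receptor gene *Gp6*, the integrin gene *Itga2b*, the activation receptor gene *Treml1*, von Willebrand factor (*Vwf*) and the chemokine genes *Pf4* and *Ppbp*. Of the 9, 6 had enough counts to be tested among 13082 genes. *Ppbp*, *Gp6* and *Treml1* fell below that filter, and *Treml1* had 0 counts in all 9 libraries.

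Poly-A RNA was sequenced from 3 mouse cell lines, with 3 libraries each. Hox-WT and Hox-URE are c-Kit+ bone marrow progenitors immortalized with a Hoxb8 fusion protein, the first wild-type and the second without either copy of the URE, the upstream regulatory element of *Spi1*. URE-AML, labelled B22, was grown from leukemic blasts, also with both copies of the URE deleted and with no Hoxb8. All lines grew in medium with fetal calf serum, IL-3, IL-6, stem cell factor and estradiol, and the labels list no thrombopoietin, the growth factor of megakaryocytes. Each genotype and stage is 1 line, so a difference is one between lines. Whether the 3 libraries of a line are independent cultures is not stated, so p measures only the spread between them, which may be technical.

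*Spi1* had 2791 to 2932 counts per Hox-WT library, at most 1 per Hox-URE library and 62 to 148 per URE-AML library, and so was lower in both lines labelled with the deletion. Total counts were 20331064 to 28588718 per library. Levels are in CPM, with each library total adjusted by its TMM factor (edgeR). The limit that a count of 0 allows, 3 counts, is 0.104 to 0.153 CPM and covers counting error only. Library 1 of each Hox line stood apart from the others across all genes. The chi-square per degree of freedom was 33.7 and 34.4 against 19.3 between the others in Hox-WT, and 72.7 and 107 against 28.7 in Hox-URE. In URE-AML, at 39.9 and 55 against 36.8, library 1 was not clearly apart. The sums of the neutrophil precursor, basophil and mast cell, and progenitor markers described further on were lowest in library 1 of every line. Among the members above the floor in a line it was the lowest library for 5 of 6 in Hox-WT, 5 of 5 in Hox-URE and 5 of 5 in URE-AML. The summed CPM of the 9 genes was 7.31 in Hox-WT library 1 against 16.4 and 16.5 in the others, 21.3 against 48.6 and 66.7 in Hox-URE, and 1.98 against 5.04 and 5.54 in URE-AML. Results are therefore also given without the 3 libraries numbered 1 where a call of a member changed, an alternative chosen after seeing the data.

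**Figure D1:**
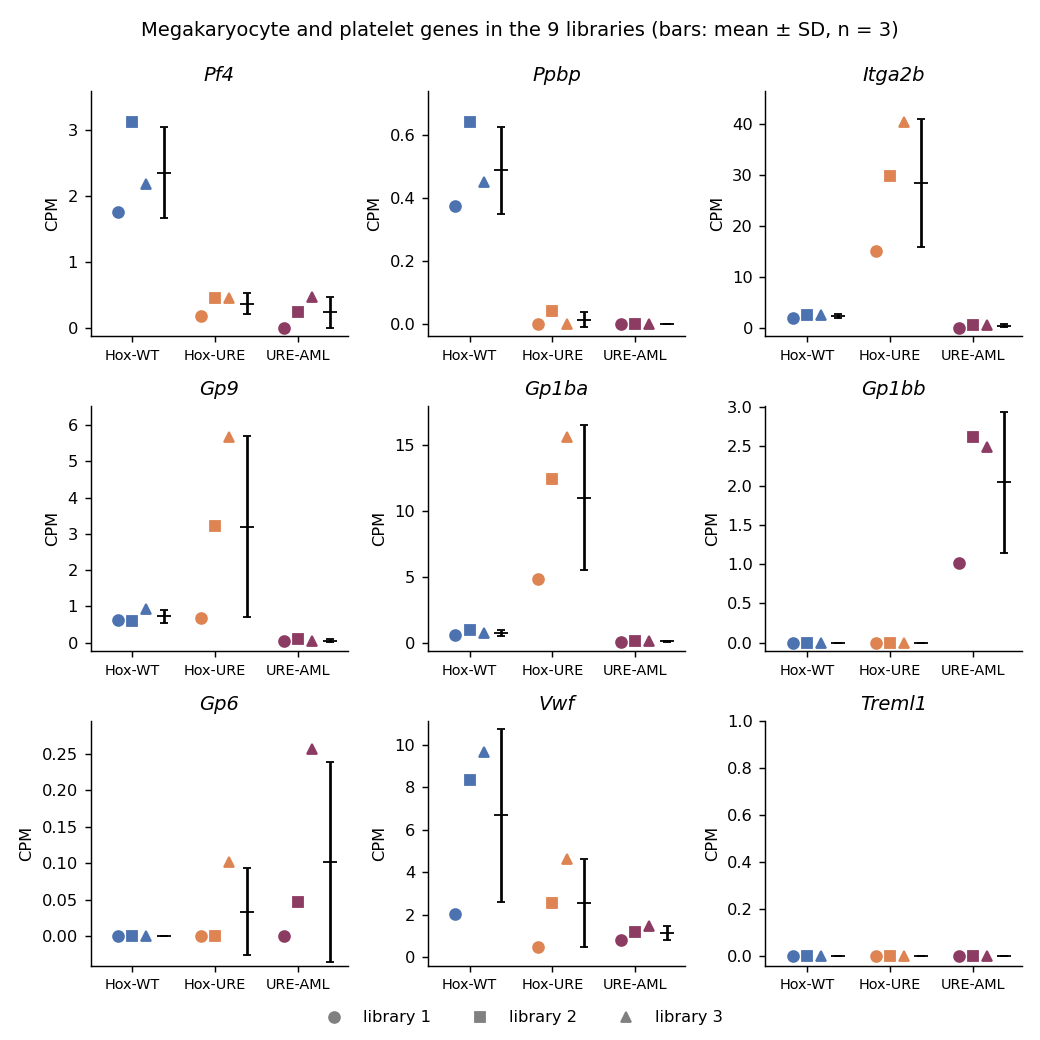
CPM of each of the 9 genes (vertical axes, each with its own scale) in the 3 libraries of each line; symbols mark the library number, and black bars give mean ± SD over 3 libraries. *Itga2b*, *Gp1ba* and *Gp9* peaked in Hox-URE, *Pf4*, *Ppbp* and *Vwf* in Hox-WT, *Gp1bb* was counted only in URE-AML, and *Treml1* lay at 0 throughout.

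The 9 genes did not move as one. *Itga2b*, *Gp1ba* and *Gp9* were highest in Hox-URE and lowest in URE-AML. *Pf4*, *Ppbp* and *Vwf* were highest in Hox-WT. *Gp1bb* was counted in URE-AML only. Most were low beside the rest of the transcriptome: the median tested gene had a mean of 21.8 CPM (Hox-WT), 22.5 CPM (Hox-URE) or 22.4 CPM (URE-AML), and the only member whose mean lay above it was *Itga2b* in Hox-URE at 28.4 ± 12.6 CPM (SD, n = 3). In bulk RNA, fewer cells of a type and less RNA per cell cannot be told apart.

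Against Hox-WT, 4 of the 6 tested members were called in Hox-URE, with an adjusted p below 0.05 and a change of more than 1.5-fold (edgeR quasi-likelihood F test, Benjamini-Hochberg over all genes tested). Of these, 3 were higher and 1 was lower. The line difference was wide across the transcriptome, with 37.2% of all tested genes called, 21.3% higher and 15.9% lower. In URE-AML all 6 tested members were called versus Hox-WT, 1 higher and 5 lower, where 43.2% of tested genes were called, 23% higher and 20.2% lower. Between URE-AML and Hox-URE 1 was higher and 3 were lower, where 42.7% were called, 20.3% higher and 22.4% lower. The 1 higher in both URE-AML comparisons was *Gp1bb*. It passed the count filter through URE-AML alone, so its direction was set by the filter. Each line enters 2 of the 3 comparisons, so these counts share libraries.

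The median log2 fold change of the tested members was 1.06 in Hox-URE versus Hox-WT, and 2.12 over the 5 members left when *Gp1bb*, at 0 counts in both lines, is put aside. It was -2.70 in URE-AML versus Hox-WT and -3.40 in URE-AML versus Hox-URE, and both stayed the same with *Gp1bb* at its bound. Over all tested genes the median was 0.00 in each comparison. The libraries of the compared lines did not overlap for 3 of 6 tested members in Hox-URE versus Hox-WT, beside 60.3% of all tested genes. The same held for 6 of 6 in URE-AML versus Hox-WT, beside 67.6%, and for 4 of 6 in URE-AML versus Hox-URE, beside 62.8%. *Gp1bb* is in both of these counts and in both URE-AML medians, and its lack of overlap also followed from the filter.

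**Figure D2:**
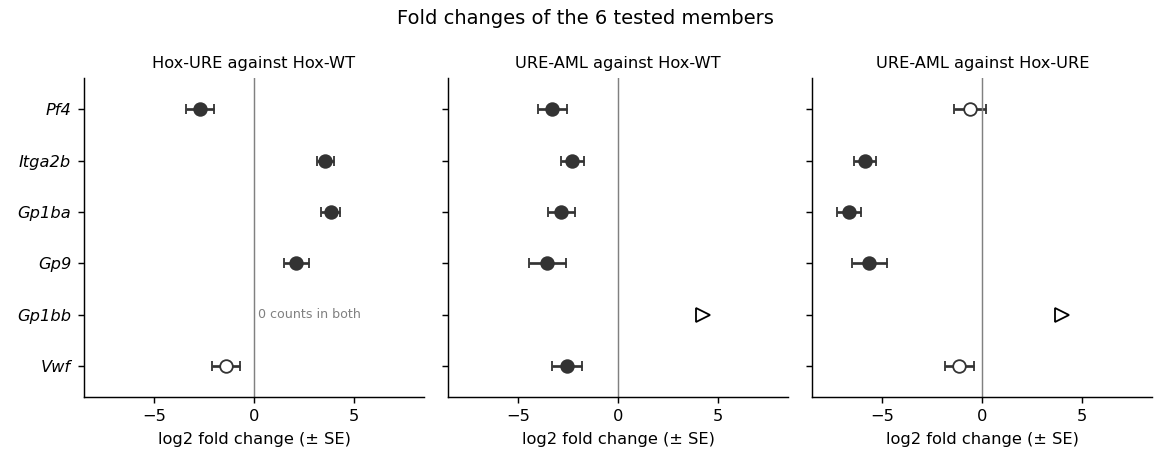
Log2 fold change (horizontal axis) of the 6 tested members in the 3 comparisons, with bars for ± 1 SE; filled circles were called, open circles were not, and open triangles are lower bounds for *Gp1bb*, which had 0 counts in both Hox lines. *Itga2b*, *Gp1ba* and *Gp9* lie to the right of 0 in Hox-URE versus Hox-WT and to the left in both URE-AML panels.

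*Gp1ba* encodes the GPIb alpha chain, the part of the receptor that touches von Willebrand factor. It lies on chromosome 11 (70639122 to 70642036, plus strand, GRCm38). Its CPM was 0.562, 1.00 and 0.726 in Hox-WT libraries 1 to 3, 4.84, 12.4 and 15.6 in Hox-URE, and 0.0404, 0.143 and 0.129 in URE-AML. Every Hox-URE library exceeded every Hox-WT library, and every URE-AML library lay below both. The log2 fold change was 3.83 ± 0.459 (SE) in Hox-URE versus Hox-WT, a 14.2-fold higher level (adjusted p = 7.32e-05, edgeR). URE-AML held 1 to 3 counts per library. *Gp1ba* was 7.56-fold lower there than Hox-WT (95% exact counting interval 3.46 to 19.5, adjusted p = 0.00428, edgeR) and 102-fold lower than Hox-URE (49.4 to 255, adjusted p = 6.86e-06, edgeR). These intervals cover counting error only.

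*Gp9*, on chromosome 6 (87778072 to 87779768, plus strand), encodes the small subunit that holds the receptor together at the surface. Hox-WT libraries had 17, 17 and 27 counts, Hox-URE libraries 19, 78 and 111, and URE-AML libraries 1, 2 and 1. On the CPM scale Hox-URE library 1, at 0.692, fell inside the Hox-WT range of 0.607 to 0.934, while libraries 2 and 3, at 3.23 and 5.67, lay above it. The log2 fold change in Hox-URE versus Hox-WT was 2.12 ± 0.623 (adjusted p = 0.0158, edgeR). The call rested on single libraries: it was lost without Hox-URE library 3 (1.41, adjusted p = 0.0772, edgeR), without Hox-WT library 1 (2.03, adjusted p = 0.054, edgeR) and without Hox-WT library 2 (2.0, adjusted p = 0.0571, edgeR). The lower level in URE-AML did not overlap either line. It was 12.6-fold below Hox-WT (counting interval 4.68 to 47.7, adjusted p = 0.00751, edgeR) and 50.5-fold below Hox-URE (19.4 to 187, adjusted p = 0.000293, edgeR). Without Hox-URE library 3 the log2 difference from Hox-URE went from -5.65 to -4.96.

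*Gp1bb* encodes the GPIb beta chain, which is linked to the alpha chain. It went the other way from its partners, with 0 counts in all 6 Hox libraries and 25, 55 and 58 counts in URE-AML, or 1.01, 2.62 and 2.49 CPM. That is at least 18.9-fold higher than Hox-WT (adjusted p = 0.000462, edgeR) and at least 15.8-fold higher than Hox-URE (adjusted p = 0.000564, edgeR), against a floor of 3 counts per library. *Gp1bb* passed the count filter through URE-AML alone, so the direction of these calls was set by the filter. The annotation also limits this value. *Gp1bb*, on chromosome 16 (18620317 to 18622403, minus strand), shares 1902 of the 2087 bases it spans with *Septin5*, a septin gene on the same strand (18620502 to 18629954), and reads in the shared stretch can be assigned to either gene.

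*Septin5*, named here after its values were seen, had 8, 36 and 33 counts in Hox-WT, 2, 3 and 1 in Hox-URE and 1369, 1743 and 2574 in URE-AML. It was 6.49 ± 0.405 log2 units higher in URE-AML than Hox-WT (adjusted p = 4.2e-07, edgeR). Another annotated gene at the place, *Gm49601*, had 0 to 3 counts in URE-AML and 0 in the Hox lines. Whether the *Gp1bb* counts come from *Gp1bb* transcripts or from *Septin5* cannot be told apart in gene counts. With *Gp1ba* and *Gp9* at 1 to 3 counts in URE-AML and *Gp1bb* at 0 in the Hox lines, no line had all 3 receptor subunits above the floor.

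*Gp5*, the gene of the remaining subunit of this receptor, was not called in Hox-URE versus Hox-WT. It had 18, 31 and 31 counts in Hox-WT, 2, 17 and 23 in Hox-URE and 0, 1 and 1 in URE-AML. The Hox lines overlapped (log2 fold change -0.59 ± 0.686, adjusted p = 0.496, edgeR). By pooled counts URE-AML was 33.1-fold below Hox-WT (counting interval 8.86 to 278, adjusted p = 0.0026, edgeR) and 20.4-fold below Hox-URE (5.3 to 174, adjusted p = 0.00701, edgeR), where the fitted log2 difference of -4.22 was -3.51 without Hox-URE library 3.

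*Itga2b* encodes the alpha chain of the platelet fibrinogen receptor and lies on chromosome 11 (102453297 to 102470122, minus strand). Its CPM was 1.91, 2.64 and 2.56 in Hox-WT, 15.1, 29.8 and 40.3 in Hox-URE, and 0.0808, 0.714 and 0.687 in URE-AML. The 3 lines did not overlap, although Hox-URE library 1 was well under libraries 2 and 3. *Itga2b* was 11.9-fold higher in Hox-URE than Hox-WT (log2 3.57 ± 0.443, adjusted p = 9.13e-05, edgeR). In URE-AML it was 4.89-fold lower than Hox-WT (log2 -2.29 ± 0.562, adjusted p = 0.00547, edgeR) and 58.1-fold lower than Hox-URE (log2 -5.86 ± 0.539, adjusted p = 8.13e-06, edgeR).

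Its partner *Itgb3*, the beta chain that also pairs with the alpha chain of the vitronectin receptor, moved in the same order at a higher level. It was 1.35 ± 0.213 log2 units higher in Hox-URE than Hox-WT (adjusted p = 0.000448, edgeR) and fell by 1.75 ± 0.219 in URE-AML (adjusted p = 6.97e-05, edgeR). RPKM, the CPM per kilobase of exon, allows the chains to be compared. *Itgb3* in Hox-WT stood at 17.4 ± 2.66 RPKM beside 0.435 ± 0.0734 for *Itga2b* (SD, n = 3). In Hox-URE the values were 44.3 ± 7.35 and 5.21 ± 2.32, and in URE-AML they were 5.17 ± 1.48 and 0.0905 ± 0.0656. The ratio of *Itgb3* to *Itga2b* had a median of 41.2 in Hox-WT (lowest 37.4), 8.97 in Hox-URE (lowest 6.51) and 46.2 in URE-AML, where it ran from 27.5 to 407 and library 1 had 2 *Itga2b* counts. The beta chain was thus above the alpha chain in every library, and least so in Hox-URE.

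**Figure D3:**
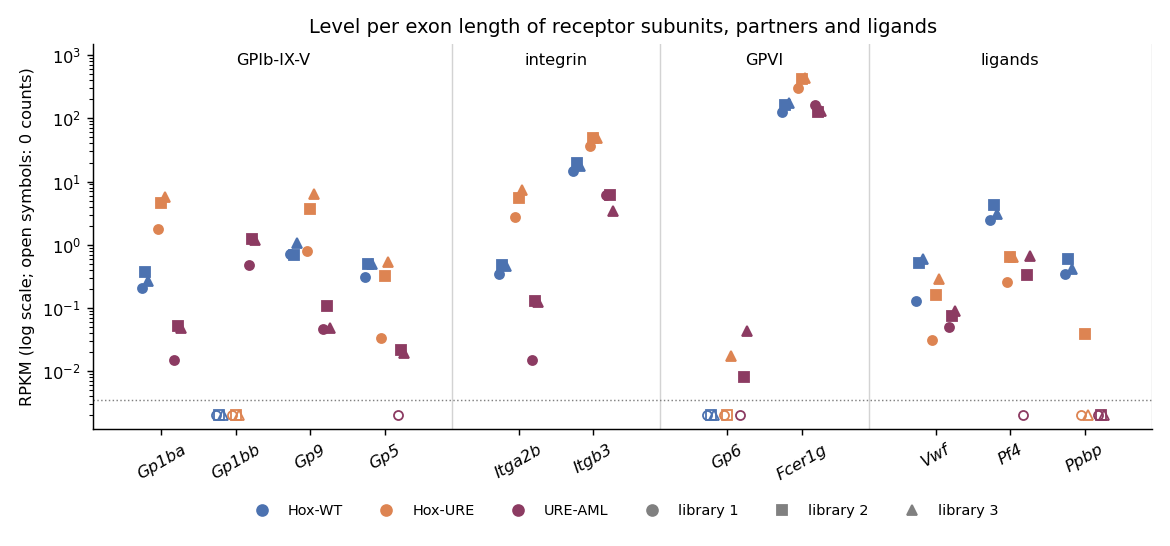
RPKM on a log scale (vertical axis) of receptor subunits, their partners and their ligands in each library; colours mark lines, shapes mark library numbers, and open symbols under the dotted line are libraries with 0 counts. *Fcer1g* and *Itgb3* lay above their platelet partners *Gp6* and *Itga2b* in all 9 libraries, and *Gp1bb* was counted only where *Gp1ba*, *Gp9* and *Gp5* were lowest.

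The 250 bases before the starts of *Gp1ba*, *Gp9* and *Itga2b* are shown because these 3 genes shared an order over the lines. They come from RefSeq (GRCm38.p6) and are written 5′ to 3′ on the gene's strand. Capitals mark the GATA word AGATAA with its variants AGATAG as well as TGATAA, also TGATAG, and the ETS word CCGGAA with its variants CAGGAA as well as GAGGAA, read on both strands. ETS factors include PU.1 and FLI1, and GATA factors include GATA1 and GATA2. The windows lie at chr11:70638872-70639121 (plus) for *Gp1ba*, chr6:87777820-87778069 (plus) for *Gp9* and chr11:102469884-102470133 (minus) for *Itga2b*, which overlaps the exon of an annotated noncoding *Itga2b* transcript.
Gp1ba: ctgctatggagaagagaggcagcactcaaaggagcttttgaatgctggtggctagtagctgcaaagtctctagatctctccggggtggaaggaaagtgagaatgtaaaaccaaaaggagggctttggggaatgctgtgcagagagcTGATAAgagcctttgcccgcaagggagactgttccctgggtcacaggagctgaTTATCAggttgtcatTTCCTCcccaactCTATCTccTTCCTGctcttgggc
Gp9: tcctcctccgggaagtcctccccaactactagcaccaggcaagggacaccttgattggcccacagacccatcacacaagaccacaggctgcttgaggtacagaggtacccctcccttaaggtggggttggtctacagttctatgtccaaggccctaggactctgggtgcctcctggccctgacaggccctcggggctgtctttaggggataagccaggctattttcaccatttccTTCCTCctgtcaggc
Itga2b: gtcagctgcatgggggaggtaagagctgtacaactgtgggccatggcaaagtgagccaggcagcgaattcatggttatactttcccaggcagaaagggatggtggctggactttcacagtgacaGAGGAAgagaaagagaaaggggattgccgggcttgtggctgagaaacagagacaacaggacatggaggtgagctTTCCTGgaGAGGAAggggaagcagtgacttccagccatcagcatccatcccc

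*Gp1ba* held 3 GATA words, beginning 104, 51 and 23 bases before the start, and 2 ETS words. *Gp9* and *Itga2b* held none of the 4 GATA words, and 1 and 3 ETS words. Over the 8 members with a RefSeq window, all but *Vwf*, 3 held a GATA word and 6 an ETS word, against 26.5% and 50.1% of 32851 windows of the same length. A RUNX word (TGTGGT or its variant TGCGGT) stood in 1 member, *Gp9*, and in 18.6% of windows. These are matches of letters, not binding sites. The *Gp1bb* window is not shown, since it overlaps *Septin5*.

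*Gp6* encodes the collagen receptor GPVI, which signals through the Fc receptor gamma chain of *Fcer1g*. *Gp6*, on chromosome 7 (4363965 to 4397744, minus strand), had 0 counts in Hox-WT, 0, 0 and 2 in Hox-URE and 0, 1 and 6 in URE-AML. Only 1 of 9 libraries was above the floor of 3 counts, so no difference was detectable at this depth. *Fcer1g*, which also serves the Fc receptors of myeloid cells, was abundant in every line, with 154 ± 24.8 RPKM for Hox-WT, 389 ± 77.4 for Hox-URE and 141 ± 19.0 for URE-AML (SD, n = 3). It rose by 1.33 ± 0.174 log2 units in Hox-URE versus Hox-WT (adjusted p = 0.000127, edgeR), and URE-AML overlapped Hox-WT (adjusted p = 0.528, edgeR).

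*Treml1*, a receptor stored in the alpha granules of platelets and brought to their surface on activation, lies on chromosome 17 (48359916 to 48367176, plus strand). With 0 counts in every library, its level is under 0.104 to 0.153 CPM in each.

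*Vwf* encodes von Willebrand factor, made by megakaryocytes and endothelial cells, and lies on chromosome 6 (125546774 to 125686679, plus strand). Its counts were 55, 234 and 280 in Hox-WT, 14, 62 and 91 in Hox-URE and 20, 25 and 34 in URE-AML. Library 1 was the low one in each line, and in both Hox lines it was several times below its neighbours. URE-AML was 5.82-fold below Hox-WT with no overlap (log2 -2.54 ± 0.741, adjusted p = 0.0136, edgeR), a call lost without URE-AML library 1 (-2.33, adjusted p = 0.052, edgeR).

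Between Hox-URE and Hox-WT the *Vwf* libraries overlapped and the difference of -1.40 ± 0.696 log2 units was not called (adjusted p = 0.116, edgeR). It was called without Hox-URE library 3 (-2.14, adjusted p = 0.0392, edgeR), without Hox-WT library 1 (-1.83, adjusted p = 0.0404, edgeR), without a filter on low counts (-1.40, adjusted p = 0.0433, edgeR) and without all libraries numbered 1 (-1.33, adjusted p = 0.0076, edgeR). A block for replicate number also gave a call (-1.49, adjusted p = 0.0103, edgeR). URE-AML versus Hox-URE gave -1.14 ± 0.747 (adjusted p = 0.218, edgeR), which was called without Hox-URE library 1 (-1.64, adjusted p = 0.0379, edgeR) and without all libraries numbered 1 (-1.43, adjusted p = 0.00875, edgeR), and was -0.41 without Hox-URE library 3. Of the 9 genes, *Vwf* was the one whose calls in all 3 comparisons turned on which libraries entered. Of the 9 endothelial markers, *Cdh5* and *Emcn* had 0 counts in all 9 libraries and *Tek* had at most 1, while *Pecam1* averaged 164 CPM for Hox-WT, 218 for Hox-URE and 748 for URE-AML. Their sum was highest in URE-AML, where *Vwf* was lowest, and their part in the level of *Vwf* was not tested.

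*Pf4* and *Ppbp* encode chemokines of the alpha granule, platelet factor 4 and pro-platelet basic protein. They are neighbours on chromosome 5, *Ppbp* at 90768518 to 90770063 and *Pf4* at 90772435 to 90773383, both on the plus strand and 2371 bases apart. *Pf4* had 47, 87 and 63 counts in Hox-WT, 5, 11 and 9 in Hox-URE and 0, 5 and 11 in URE-AML. Both lines with the deletion lay below every Hox-WT library, and they overlapped each other. *Pf4* was 6.45-fold lower in Hox-URE (log2 -2.69 ± 0.686, adjusted p = 0.00759, edgeR) and 9.85-fold lower in URE-AML (log2 -3.30 ± 0.724, adjusted p = 0.00281, edgeR) than Hox-WT. The second value was -2.70 without URE-AML library 1 and -4.33 without URE-AML library 3. URE-AML versus Hox-URE gave -0.61 ± 0.804 (adjusted p = 0.544, edgeR), which was 0.00 without URE-AML library 1 and -1.64 without URE-AML library 3.

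*Ppbp* had 10, 18 and 13 counts in Hox-WT, 0, 1 and 0 in Hox-URE and 0 in all URE-AML libraries. It followed its neighbour, at a lower level. By pooled counts it was 34.9-fold lower in Hox-URE than Hox-WT, with a wide counting interval of 5.92 to 1410, and in URE-AML it was at least 3.74-fold lower. *Ppbp* fell just under the filter. Without the filter it was called lower in Hox-URE (adjusted p = 0.00188, edgeR) and in URE-AML (adjusted p = 0.000457, edgeR), which brought the members called lower in Hox-URE from 1 to 3, *Vwf* included. The count was also 3 without Hox-WT library 1, without Hox-URE library 3 and without all libraries numbered 1, and 2, with *Ppbp* tested, without any 1 of Hox-URE libraries 1 and 2 and the URE-AML libraries. Per exon length, *Pf4* had the highest level of the 9 genes in Hox-WT, at 3.26 ± 0.955 RPKM, and stood at 0.508 ± 0.221 in Hox-URE and 0.328 ± 0.327 in URE-AML.

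The windows of *Pf4* (chr5:90772185-90772434, plus) and *Ppbp* (chr5:90768268-90768517, plus) are shown because both genes were lower in both lines with the URE deleted. Capitals mark the same words, and also the longer PU.1 word GAGGAAGT, which contains the ETS word GAGGAA and was read on both strands.
Pf4: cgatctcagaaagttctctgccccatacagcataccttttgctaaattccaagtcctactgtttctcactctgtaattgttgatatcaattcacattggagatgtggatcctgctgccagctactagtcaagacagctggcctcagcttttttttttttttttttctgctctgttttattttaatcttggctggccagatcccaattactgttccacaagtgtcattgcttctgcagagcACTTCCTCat
Ppbp: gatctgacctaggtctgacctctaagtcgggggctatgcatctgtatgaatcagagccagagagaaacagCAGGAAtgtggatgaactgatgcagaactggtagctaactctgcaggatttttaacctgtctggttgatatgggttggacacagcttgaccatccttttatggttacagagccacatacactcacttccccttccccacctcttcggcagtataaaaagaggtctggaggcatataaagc

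The PU.1 word stood 10 bases before the start of *Pf4* on the opposite strand, in 1 of the 8 members with a window and in 2.44% of all windows. *Ppbp* held 1 ETS word, 180 bases before its start. These letters say nothing of what binds there in these cells.

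Genes around the members in platelet biology were taken from 4 lists with 60 genes, of which 44 were tested. In Hox-URE versus Hox-WT 23 rose and 6 fell. In URE-AML versus Hox-WT 20 were higher and 18 lower, and versus Hox-URE 10 were higher and 21 lower. Several genes typical of platelets were not detected: *Itga2*, *P2ry12*, *Mpig6b*, *Tubb1* and *Myl9* had 0 counts in all 9 libraries.

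**Figure D4:**
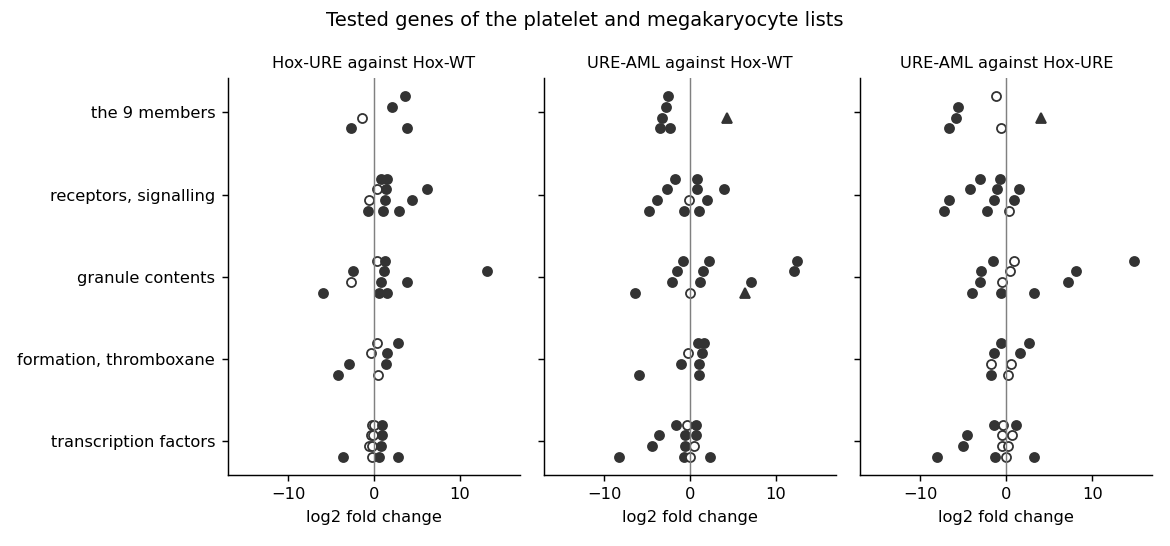
Log2 fold change (horizontal axis) of each tested gene of the members and of 4 lists of platelet and megakaryocyte genes, in the 3 comparisons; filled symbols were called, open ones were not, and triangles stand at bounds for genes with 0 counts in one line. Of the 11 tested receptor and signalling genes, 8 were called higher in Hox-URE versus Hox-WT, beside 21.3% of all tested genes. In URE-AML versus Hox-URE 8 were called lower, beside 22.4%.

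Among platelet receptors and their signalling partners, 8 of 11 tested genes were called higher in Hox-URE than Hox-WT and 1 lower, with a median log2 fold change of 1.33. Receptors for thrombin and ADP were among them. The list counts *F2r*, the gene of the thrombin receptor PAR1, which human platelets carry but mouse platelets do not. *F2r* had 527, 602 and 717 counts in Hox-WT, 4756, 11705 and 16021 in Hox-URE and 95, 76 and 59 in URE-AML. It rose by 4.48 ± 0.478 log2 units in Hox-URE (adjusted p = 3.28e-05, edgeR; 3.89 without Hox-URE library 3) and fell by 2.72 ± 0.495 in URE-AML (adjusted p = 0.000858, edgeR), both versus Hox-WT.

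*F2rl2* (PAR3), a cofactor for thrombin, rose by 2.92 ± 0.213 in Hox-URE (adjusted p = 2.29e-06, edgeR) and fell by 3.80 ± 0.294 in URE-AML (adjusted p = 2.03e-06, edgeR). *P2ry1*, an ADP receptor, went from 5 to 9 counts in Hox-WT to 333 to 543 in Hox-URE (log2 6.14 ± 0.253, adjusted p = 5.19e-08, edgeR) and 75 to 97 in URE-AML (log2 3.91 ± 0.256, adjusted p = 5.91e-07, edgeR). The thrombin receptor of *F2rl3* (PAR4) was higher in both lines, by 0.79 ± 0.0976 (adjusted p = 8.56e-05, edgeR) and 1.08 ± 0.098 (adjusted p = 6.44e-06, edgeR). The gene called lower in Hox-URE was *Rasgrp2*, the activator of the small GTPase that switches on platelet integrins (-0.69 ± 0.141, adjusted p = 0.00224, edgeR). In URE-AML the list split, with 5 higher and 5 lower versus Hox-WT and a median of -0.14. Against Hox-URE 2 were higher and 8 lower, with a median of -1.47.

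Of the granule contents and secretion genes, 7 of 12 tested were higher and 2 lower in Hox-URE than Hox-WT, with a median of 0.98, or 0.80 over the 11 genes above the floor in at least 1 of these lines. In URE-AML 7 were higher and 4 lower, with a median of 1.34. *Thbs1*, thrombospondin, was raised in both, by 3.90 ± 0.651 (adjusted p = 0.000635, edgeR) and 7.09 ± 0.745 (adjusted p = 2e-05, edgeR), and its Hox-URE libraries spread from 43.9 to 283 CPM. Without Hox-URE library 1 the first value was 2.69. Some were high in URE-AML alone: *Clu*, clusterin, had 0 to 6 counts in the Hox lines and 7890 to 20171 in URE-AML, and *F5*, coagulation factor V, had 0 to 2 and 183 to 226. *F13a1*, the factor XIII subunit that monocytes also make, was 107 CPM in Hox-WT, 1.70 in Hox-URE (log2 -5.98 ± 0.47, adjusted p = 3.87e-06, edgeR) and 238 in URE-AML (log2 1.16 ± 0.35, adjusted p = 0.0162, edgeR). The last call was lost without URE-AML library 1 (0.88, adjusted p = 0.07, edgeR) and, as the change fell under the fold required, without all libraries numbered 1 (0.57, adjusted p = 0.0276, edgeR).

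URE-AML versus Hox-URE gave 4 granule genes higher and 5 lower, with a median of -0.04. The lower count was 3 without URE-AML library 1 and likewise without URE-AML library 2. The genes of platelet formation and thromboxane synthesis gave 3 higher and 2 lower of 8 tested in Hox-URE and 5 higher and 2 lower in URE-AML versus Hox-WT, with medians of 0.39 and 0.92. Against Hox-URE, URE-AML had 2 higher and 3 lower, with a median of -0.20. *Tbxas1*, thromboxane synthase, fell in both lines, from 103 to 114 counts in Hox-WT to 2 to 11 in Hox-URE (log2 -4.14 ± 0.566, adjusted p = 0.000171, edgeR) and 0 to 3 in URE-AML (68-fold lower by pooled counts, counting interval 26.3 to 251, adjusted p = 3.63e-05, edgeR). The log2 change in Hox-URE was -5.06 without Hox-URE library 1. The fitted change in URE-AML, -5.96, was -5.37 without URE-AML library 1 and -7.26 without URE-AML library 2. *Ptgs1*, the cyclooxygenase one step before it, was not called in Hox-URE (-0.29 ± 0.13, adjusted p = 0.0884, edgeR) and was higher in URE-AML (1.34 ± 0.131, adjusted p = 1.16e-05, edgeR).

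Of 13 tested megakaryocyte transcription factor genes, 5 rose and 1 fell in Hox-URE relative to Hox-WT, with a median of -0.16. *Gata1*, the factor of megakaryocyte and red cell maturation, had 46, 33 and 26 counts in Hox-WT, 3, 1 and 3 in Hox-URE and 23, 19 and 26 in URE-AML. It was thus lowest in the line where *Itga2b*, *Gp1ba* and *Gp9* were highest, 12.8-fold below Hox-WT by pooled counts (counting interval 5.98 to 32.5, adjusted p = 0.000156, edgeR), and URE-AML overlapped Hox-WT (adjusted p = 0.433, edgeR). *Gata2*, which acts earlier in progenitors and mast cells, rose by 0.99 ± 0.203 in Hox-URE (adjusted p = 0.00226, edgeR) and fell by 3.59 ± 0.231 in URE-AML (adjusted p = 5.2e-07, edgeR). The GATA cofactor gene *Zfpm1* went the same way, by 0.63 ± 0.146 (adjusted p = 0.00433, edgeR) and -4.44 ± 0.178 (adjusted p = 1.9e-08, edgeR). Its rise fell under the fold change required without Hox-URE library 2 (0.58) and without Hox-URE library 3 (0.50).

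*Gfi1b*, a repressor needed for platelet production, was higher in both, by 2.78 ± 0.458 (adjusted p = 0.000592, edgeR) and 2.27 ± 0.457 (adjusted p = 0.00165, edgeR), or 3.64 and 3.14 without Hox-WT library 3. *Nfe2*, which drives the last steps of platelet formation, rose by 0.94 ± 0.113 in Hox-URE (adjusted p = 7.17e-05, edgeR). It was 0.47 ± 0.112 higher in URE-AML, under the fold change required (adjusted p = 0.00464, edgeR). *Fli1*, an ETS factor of megakaryocytes, was -0.40 ± 0.139 in Hox-URE, also under that fold change (adjusted p = 0.0325, edgeR), and higher in URE-AML (0.69 ± 0.138, adjusted p = 0.00169, edgeR). *Runx1* had a difference of 0.00 ± 0.272 in Hox-URE and was 0.69 ± 0.271 higher in URE-AML, at the edge of the threshold (adjusted p = 0.0495, edgeR). That call was lost without any 1 of the URE-AML libraries, Hox-WT library 1 or 3, or Hox-URE library 2. In these fits the difference was 0.54 to 0.75, with an adjusted p of 0.0676 to 0.159 (edgeR). Without all libraries numbered 1 the difference was 0.45, under the fold required. *Meis1* had 144 to 337 counts in the Hox lines and 0 to 1 in URE-AML (adjusted p = 9.51e-07 versus Hox-WT, edgeR). In URE-AML 3 genes of this list were higher and 7 lower versus Hox-WT, with a median of -0.61, and 2 were higher and 5 lower versus Hox-URE, with a median of -0.47.

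Of 6 lists of markers of other cells, the basophil and mast cell list and the monocyte list had their highest sums in Hox-URE and their lowest mean in URE-AML, as had *Itga2b*, *Gp1ba* and *Gp9*. The monocyte sum in Hox-URE was nearly all *Ccr2*, at 885 CPM, and 3 of 5 tested monocyte markers fell there while 1 rose, with a median log2 change of -2.87 relative to Hox-WT. The basophil and mast cell sum ran from 616 to 932 CPM for Hox-WT, from 1720 to 6210 for Hox-URE and from 73.4 to 113 for URE-AML. Of its 7 tested genes 5 rose and 0 fell in Hox-URE relative to Hox-WT (edgeR; 0 fell at an unadjusted p under 0.05 or by DESeq2). In URE-AML 1 was higher and 4 were lower versus Hox-WT, and 7 of 7 were lower versus Hox-URE. The gene with the most counts of this list in the Hox lines was *Cpa3*, a mast cell protease gene, with 362 to 717 CPM for Hox-WT, 768 to 4440 for Hox-URE and 0.848 to 2.36 for URE-AML. Its log2 change in Hox-URE relative to Hox-WT was 2.28 ± 0.542 (adjusted p = 0.0052, edgeR), or 1.69 without Hox-URE library 3. Single genes of the list had other orders: *Mcpt8*, a basophil protease gene, averaged 32.5 CPM for URE-AML and 8.56 for Hox-WT, and *Lmo4* averaged 108 for Hox-URE and 115 for Hox-WT. *Prss34*, another basophil protease gene, averaged 0.213 CPM for Hox-WT, 706 for Hox-URE and 0.56 for URE-AML. Of the defining markers of this list, *Fcer1a* had 0 counts in both Hox lines and 0 to 10 in URE-AML, and *Cma1* had at most 1 count in any library. Within Hox-URE this sum was lowest in library 1 (1720) and highest in library 3 (6210), as for the sum of the members, and the erythroid, neutrophil precursor and progenitor sums had the same library order. The part of such cells in the levels of the members was not tested.

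**Figure D5:**
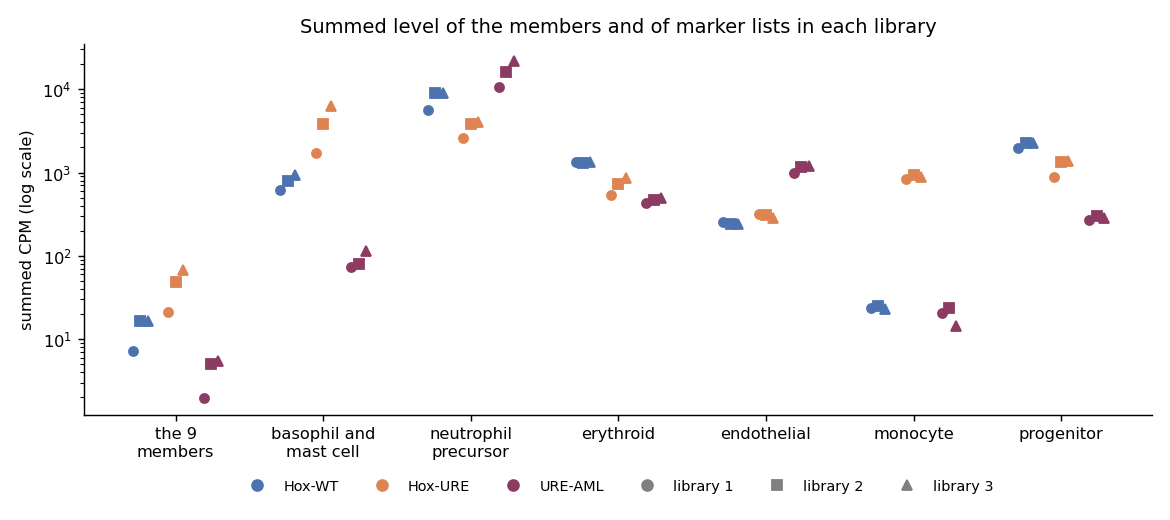
Summed CPM on a log scale (vertical axis) of the 9 members and of 6 lists of cell type markers in each library; colours mark lines and shapes mark library numbers. The sums of the members, of the basophil and mast cell markers and of the monocyte markers were highest in Hox-URE, monocyte sums overlapped between Hox-WT and URE-AML, and neutrophil precursor and endothelial sums peaked in URE-AML.

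The neutrophil precursor sum ran from 5610 to 9030 CPM for Hox-WT, from 2620 to 4000 for Hox-URE and from 10600 to 21900 for URE-AML. Of its 8 genes 7 fell and 0 rose in Hox-URE relative to Hox-WT (edgeR; 1 rose at an unadjusted p under 0.05 and 1 by DESeq2), and 7 rose and 1 fell in URE-AML. The erythroid sum was 1310 to 1350, 531 to 868 and 435 to 491 CPM, and most of it was *Car2* and *Tfrc* in the Hox lines and *Tfrc* in URE-AML. Of 8 tested erythroid genes, 0 rose and 3 fell in Hox-URE relative to Hox-WT (edgeR; 0 rose at an unadjusted p under 0.05 and 1 by DESeq2), and 3 rose and 3 fell in URE-AML. The part of erythroid cells in the levels of the members was not tested.

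The endothelial sum ran from 241 to 254 CPM for Hox-WT, from 281 to 317 for Hox-URE and from 982 to 1190 for URE-AML. Most of it in URE-AML was *Pecam1* and *Flt1*, with means of 748 and 335 CPM. Of its 6 tested genes 5 rose and 1 fell in URE-AML relative to Hox-WT, and 0 were called in Hox-URE (edgeR; 1 had an unadjusted p under 0.05, and 0 were called by DESeq2). Monocyte markers summed to 23.2 to 25, 841 to 940 and 14.2 to 23.5 CPM. Progenitor markers summed to 1960 to 2240, 878 to 1380 and 272 to 301 CPM. In this list 5 of 6 genes were lower in Hox-URE and 1 was higher and 5 lower in URE-AML, both versus Hox-WT. Monocyte markers gave 0 higher and 2 lower of 5 tested in URE-AML versus Hox-WT (edgeR; 0 were higher at an unadjusted p under 0.05 and 0 by DESeq2).

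The genes whose pattern over the 9 libraries was most like that of a member were found by the root mean square difference of log2 CPM after centring each gene, and Pearson's r is given only as a description, since the 9 libraries fall into 3 lines. For *Gp1ba* these were *Gsta4* (difference 0.324, r = 0.993), *Ceacam2* (0.333, r = 0.992) and *Il1rl1* (0.358, r = 0.991). For *Itga2b* they were *Gsta4* (0.41), *Gp1ba* (0.42) and *Ceacam2* (0.457). *Itga2b* and *Gp1ba* were thus near each other out of all genes tested. *Il1rl1* encodes the IL-33 receptor of mast cells and basophils and had 4.46 to 5.47 CPM in Hox-WT libraries, 31.8 to 184 CPM in Hox-URE libraries and 0.687 to 2.05 CPM in URE-AML libraries.

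For *Gp9* the nearest were *Il2ra* (0.345, r = 0.987), *Scin* (0.407, r = 0.98) and *Hdc* (0.521, r = 0.964), the gene of the enzyme that makes histamine. *Pf4* lay nearest to *Ada* (0.387, r = 0.973), *Espn* (0.569, r = 0.955) and *Neurl2* (0.571, r = 0.933). *Vwf* lay nearest to *Tgtp2* (0.541, r = 0.955), *Nrbp2* (0.547, r = 0.93) and *Ociad2* (0.606, r = 0.903), so its closest gene was farther than the closest gene of any other tested member. *Gp1bb* lay nearest to *St6galnac2* (0.101, r = 0.999), *Pcolce* (0.168, r = 0.997) and *Syt17* (0.182, r = 0.997), each counted almost only in URE-AML. No member of this list other than *Gp1ba* came among the nearest 3 genes of another member.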

How the data were processed

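The authors quantified stranded poly-A libraries with Salmon (GRCm38, per the labels) and summed transcripts to genes with tximport. The deposited table holds estimated counts, all whole numbers, with no scaling for depth. The transcriptome release and any length scaling are not given in the sources used here. All 9 columns were used.

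The model was edgeR 4.0.16 (R 4.3.3). All 9 libraries entered 1 quasi-likelihood model with line as the factor, TMM scaling and filterByExpr (minimum count 10), after which 13082 genes remained. P was two-sided and adjusted by Benjamini-Hochberg over these. SE was derived from F and the log2 fold change. The thresholds (adjusted p under 0.05, fold change over 1.5) are those of the study. RPKM used exon lengths from GENCODE M21, which held 54094 of the 54347 identifiers.

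Folds against a line with 0 counts are bounds from 3 counts per library. Ratios of pooled counts, with exact 95% intervals, were used for a line with at most 3 counts per library. On simulated data with 200 of 12755 genes changed in Hox-URE against Hox-WT, 73.2% were recovered at a log2 change of 1, 95.5% at 2 and 98% at 3, with 13 false calls.

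The members and lists were chosen with earlier results of these data known. All members, platelet and marker list genes called in at least 1 comparison, *Gp5*, *Itgb3*, *Fcer1g*, *Gata1*, *Fli1*, *Nfe2*, *Runx1* and *Spi1*, and the 3 genes nearest to each tested member could be named. *Septin5*, *Gm49601*, *Itga2*, *P2ry12*, *Mpig6b*, *Tubb1*, *Myl9*, *Cdh5*, *Emcn*, *Tek*, *Fcer1a* and *Cma1* were named after their values were seen. Alternatives were other scalings, no filter, the 6 libraries compared, DESeq2 1.42.0, a block for replicate number, and leaving out each library. Plots used matplotlib 3.10.9. The result of 1 listed gene is not reported here.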

Additional observations from a re-analysis of the deposited data

How the results depend on the processing

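Under the 16 alternatives the counts of called members were 3 to 6 in Hox-URE versus Hox-WT, 6 to 7 in URE-AML versus Hox-WT and 4 to 5 in URE-AML versus Hox-URE. The other 4 lists gave 27 to 31, 36 to 41 and 29 to 36 called genes. Of 17 fold changes of tested members, 13 kept their side of the threshold under every alternative, and 0 of 272 values reversed. The exceptions were *Gp9* and *Vwf*, described above, and the cause was not tested. Leaving out libraries moved the number called higher or lower in each list by at most 2.

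With library size as the only scaling, the called genes went from 57.2% higher to 49.6% higher in Hox-URE versus Hox-WT, and from 47.6% to 54.9% in URE-AML versus Hox-URE. In a fit with the replicate block, *Vwf* was called lower in Hox-URE (-1.49, adjusted p = 0.0103, edgeR), and no other member changed its call. Same-numbered libraries had correlated deviations in 2 of 9 pairs at r over 0.1, and a library's best match had its own number in 17 of 18 searches. This is a hint from the data, since no label ties the libraries. The paper states that experiments spread over several days had replicates of all conditions on each day. It does not say whether this held for these libraries. Depth limits *Gp6*, *Ppbp* and *Treml1*, which were at or near the floor in at least 2 lines.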
